A study of Mus musculus with 17 samples.

Results

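The heavy chain variable (Ighv) segments of the mouse were followed across 17 RNA-seq libraries of sorted spleen B cells. Members were the rows of the counts table whose gene name starts with Ighv, without Ighv1-72, that held 10 or more counts summed over all libraries. This gave 121 segments of 185 Ighv rows and of 55536 rows in all. Of the other Ighv rows, 18 held 1 to 9 counts, 45 held no count, and Ighv1-72 was set apart by the rule and is used only as a comparator. Just outside the limit lay Ighv1-21 with 8 counts and Ighv1-73 with 9, and just inside it lay Ighv1-32 with 13 and Ighv1-17 with 15.

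A B cell builds its heavy chain by joining a V segment to a D and a J segment, and each mature B cell as a rule expresses 1 rearranged heavy chain. RNA of V segments therefore records which segments the cells of a sample use, weighted by how much immunoglobulin RNA each cell holds. Naive B cells carry the broad repertoire made in the bone marrow, whereas in germinal centres (GC), where B cells divide, mutate their V regions and are selected by antigen, descendants of few cells can come to dominate. Segments of a family share sequence, and the number before the hyphen names the family.

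The groups were naive, activated and GC B cells of mice labelled WT (3 libraries at each stage, replicates 1, 3 and 4) and of mice labelled p52ki, a p52 knock-in (naive and activated cells, replicates 2, 3 and 5; GC cells, replicates 2 and 5). p52 is an NF-kB subunit made from the product of Nfkb2. The sources used here give no description of the allele, and no strain, age, sex, sorting markers or immunisation. The labels do not say that replicates are separate animals, so the p-values measure only how much these samples vary, which may be technical. WT libraries are numbered 1 to 12 and p52ki libraries 19 to 30, and a batch that follows this order cannot be told apart from genotype.

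The members lay on chromosome 12 between positions 113572927 and 116000461 of GRCm38, 120 of them on the minus strand. The annotation types 104 of them as V genes, 16 as V pseudogenes and 1 as another V-like gene. They fell into 15 families, of which Ighv1 had the most members, 61. The last 300 coding bases of 5 members and of Ighv1-72 are printed because the stage and genotype differences described here turn on them. They come from the GENCODE release 21 transcripts on GRCm38, with introns removed, and read 5′ to 3′ in the sense of the gene. In the 3 members set against Ighv1-72, capitals mark bases that differ from Ighv1-72.
Ighv1-72: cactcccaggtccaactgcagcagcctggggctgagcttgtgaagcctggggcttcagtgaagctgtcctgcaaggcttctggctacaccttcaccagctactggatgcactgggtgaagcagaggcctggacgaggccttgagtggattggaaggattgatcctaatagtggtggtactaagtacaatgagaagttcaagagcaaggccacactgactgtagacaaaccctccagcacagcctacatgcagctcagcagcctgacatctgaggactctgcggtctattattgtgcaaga
Ighv1-62-3: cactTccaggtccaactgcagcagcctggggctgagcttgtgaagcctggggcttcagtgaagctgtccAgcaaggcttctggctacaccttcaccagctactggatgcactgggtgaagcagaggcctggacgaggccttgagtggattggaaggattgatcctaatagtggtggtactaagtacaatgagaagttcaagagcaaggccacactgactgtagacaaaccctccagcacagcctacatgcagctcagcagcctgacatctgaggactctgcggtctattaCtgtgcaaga
Ighv1-53: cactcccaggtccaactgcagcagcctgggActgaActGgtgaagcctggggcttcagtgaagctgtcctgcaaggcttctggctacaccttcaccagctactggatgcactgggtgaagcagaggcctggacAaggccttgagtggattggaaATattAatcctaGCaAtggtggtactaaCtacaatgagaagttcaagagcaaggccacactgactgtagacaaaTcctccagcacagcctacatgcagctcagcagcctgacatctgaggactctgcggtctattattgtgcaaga
Ighv14-3: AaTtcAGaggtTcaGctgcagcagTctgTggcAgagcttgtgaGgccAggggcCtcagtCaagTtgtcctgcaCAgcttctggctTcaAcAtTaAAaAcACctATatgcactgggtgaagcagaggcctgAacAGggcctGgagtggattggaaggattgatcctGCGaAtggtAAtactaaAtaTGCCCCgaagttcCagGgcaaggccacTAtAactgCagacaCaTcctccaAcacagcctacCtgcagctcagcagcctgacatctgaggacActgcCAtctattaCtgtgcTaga
In Ighv6-6, capitals mark bases that differ from Ighv6-3.
Ighv6-3: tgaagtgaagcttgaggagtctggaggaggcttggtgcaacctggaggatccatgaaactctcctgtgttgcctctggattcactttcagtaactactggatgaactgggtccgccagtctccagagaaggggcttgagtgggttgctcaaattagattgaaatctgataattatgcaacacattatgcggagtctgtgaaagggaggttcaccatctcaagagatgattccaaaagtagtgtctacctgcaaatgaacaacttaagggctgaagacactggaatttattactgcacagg
Ighv6-6: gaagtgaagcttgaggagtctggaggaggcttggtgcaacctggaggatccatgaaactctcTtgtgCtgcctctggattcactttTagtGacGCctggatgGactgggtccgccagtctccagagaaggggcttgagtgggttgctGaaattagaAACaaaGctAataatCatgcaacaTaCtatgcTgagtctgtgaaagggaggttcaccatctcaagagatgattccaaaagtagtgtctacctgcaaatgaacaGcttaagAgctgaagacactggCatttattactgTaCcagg

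All of these segments lie on the minus strand of chromosome 12. Ighv14-3 spans 114059845 to 114060321, Ighv6-3 spans 114391712 to 114392169, and Ighv6-6 spans 114434788 to 114435244. Ighv1-53 spans 115158403 to 115158835, Ighv1-62-3 spans 115460999 to 115461485, and Ighv1-72 spans 115757984 to 115758461. Ighv1-62-3 differed from Ighv1-72 at 3 of 351 coding bases, all of them in the stretch shown, an identity of 99.15%, Ighv1-53 at 16 bases (95.44%) and Ighv14-3 at 76 (78.35%). Ighv6-6 was 90.76% identical to Ighv6-3. Near copies are common in the locus: 20 members had another Ighv row at least 97% identical, and the median identity to the closest row was 94.57%. Counts of such pairs can be split or lost when reads are assigned, and they are uncertain for that reason.

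Total counts per library ran from 4067281 to 10036347, of which 3573 to 33853 fell on the members. Of the GC libraries, WT replicate 3 and p52ki replicates 2 and 5 had 11232, 11390 and 13044 detected genes, against 16745 to 19672 in the other 14 libraries. In the same 3 libraries 50, 60 and 75 member segments had a count, against 104 and 107 in the other WT GC libraries. Drawing 3573 member counts from every library left a mean of 49.9, 59.5 and 74.9 segments in them, so the gap remained at equal Ighv counts. Total counts and detected genes were not matched. Nfkb2 ran from 41.6 to 64.7 CPM (counts scaled to a common library total) in WT GC cells and was 122 and 68.1 CPM in p52ki GC cells. The summed CPM of 5 B cell markers was 8714 or more in every library, and that of 6 T cell markers at most 38.6.

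In naive cells the segments were used more evenly than in activated or GC cells, and the libraries were nearly alike. The 10 segments with the highest mean share in WT naive cells together held 34.1 to 34.9% of the member counts there and 32.6 to 35.5% in p52ki naive cells. Ighv1-26 led with 5.33, 5.10 and 4.44% in the WT libraries and 5.09, 4.95 and 5.15% in the p52ki libraries. Ighv9-3 followed with 4.61% ± 0.160 (SD, n = 3) in WT and 4.26% ± 0.222 in p52ki, and Ighv3-6 with 4.51% ± 0.110 and 4.51% ± 0.301. Next came Ighv5-17, Ighv1-64, Ighv5-4, Ighv1-9, Ighv1-82, Ighv1-80 and Ighv1-50, whose WT means fell from 3.58 to 2.33%. In WT the steps from Ighv3-6 to Ighv5-17, on to Ighv1-64 and on to Ighv5-4 were larger than the SD of either neighbour, and the other steps were smaller than the larger SD of the pair. For 54 segments at or above a mean share of 0.5% in WT naive cells, the median coefficient of variation between libraries was 11.4% in WT and 8.78% in p52ki naive cells.

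Evenness, the Shannon entropy of the shares divided by the logarithm of 121, is 1 when every segment is used alike. It was 0.861, 0.866 and 0.863 in the WT naive libraries and 0.867, 0.871 and 0.864 in the p52ki naive libraries, equal to between 62.2 and 65.1 equally used segments. The shared repertoire of a pair of libraries, the sum over segments of the smaller of both shares, was 91.5 to 92.6% among WT naive libraries and 92.5 to 93.0% among p52ki naive libraries. Between the genotypes it was 91.8 to 92.8%, within the range found inside them.

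**Figure D1:**
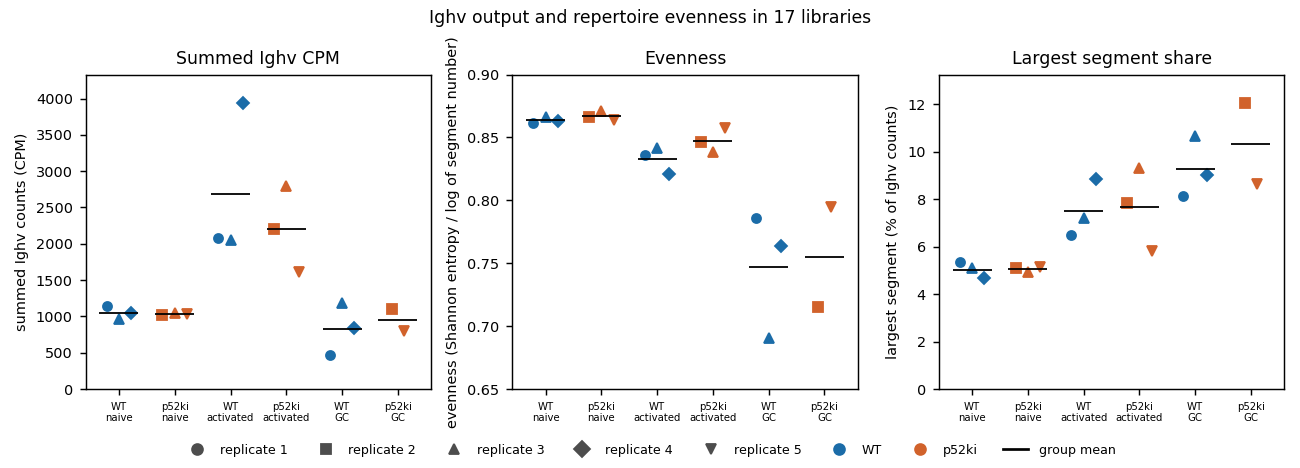
Summed Ighv CPM, evenness (Shannon entropy over the logarithm of 121; the axis starts at 0.65) and the largest segment's share (% of Ighv counts) for each of 17 libraries, with marker shape for the replicate number, colour for genotype and a line for the group mean. All 6 activated libraries lie above all naive libraries in summed CPM, from 1609 to 3937 against 963 to 1142, and all 5 GC libraries lie below 0.8 in evenness.

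Activated libraries held more Ighv RNA than naive libraries, spread less evenly over the segments. About as many segments had a count, 109 to 119 in activated and 113 to 116 in naive libraries. Summed Ighv counts were 1142, 963 and 1053 CPM in WT naive and 1022, 1049 and 1034 CPM in p52ki naive libraries. They were 2085, 2048 and 3937 CPM in WT activated and 2204, 2801 and 1609 CPM in p52ki activated libraries. No activated library overlapped the naive range. The stages differed by 1403 CPM (exact two-sided permutation within genotype, p = 0.005, the smallest it can give; adjusted p = 0.0188 over 15 comparisons). In bulk samples more cells of a type and more RNA per cell cannot be told apart. Counts on the members per 100 counts on the heavy chain constant regions were 8.56 to 9.72 in naive and 9.93 to 13.0 in activated libraries.

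Plasma cells hold far more immunoglobulin RNA than other B cells, and their markers were higher in activated than in naive libraries. The summed CPM of 7 plasma cell markers was 322 to 389 in naive libraries, 4116, 2099 and 7855 in WT activated replicates 1, 3 and 4, and 2116, 3159 and 1734 in p52ki activated replicates 2, 3 and 5. Among activated libraries of each genotype, the library with the highest plasma cell sum also had the highest Ighv output. GC libraries had sums of 2742, 5928 and 4654 CPM in WT and 2846 and 2507 CPM in p52ki, within the activated range, while their Ighv output was below every activated library. The part of plasma cell RNA in the activated repertoire was not tested. Among these markers Tnfrsf17, a plasma cell survival receptor, was at 0 in all WT naive libraries, and Prdm1, the plasma cell transcription factor, was at 0 in both p52ki GC libraries.

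Evenness was 0.836, 0.842 and 0.821 in WT activated and 0.846, 0.838 and 0.858 in p52ki activated libraries, all below the naive range. The stages differed by -0.025 (exact permutation, p = 0.005, adjusted p = 0.0188). The largest segment held 4.66 to 5.33% of the counts in naive and 5.80 to 9.31% in activated libraries, a difference of 2.54 percentage points (exact permutation, p = 0.005, adjusted p = 0.0188). It was Ighv1-26 in 5 of the 6 naive libraries. In the activated libraries it was Ighv9-3 in WT replicates 1 and 4, Ighv6-3 in WT replicate 3 and p52ki replicate 5, Ighv6-6 in p52ki replicate 2 and Ighv3-6 in p52ki replicate 3. Ighv1-72, left out of these shares by the rule, had more counts than any member in WT activated replicates 1, 3 and 4. It had 1855, 1815 and 7364 counts there, beside 12953, 17518 and 33853 on all members together. In p52ki activated replicates 2, 3 and 5 Ighv1-72 had 531, 310 and 324 counts beside 22118, 24807 and 12917.

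Ighv6-3 and Ighv6-6 rose on activation in both genotypes. The other 3 members of family Ighv6 were too low to be tested. The Ighv6-3 share was 2.22, 2.08 and 2.43% in WT naive and 2.64, 2.16 and 2.11% in p52ki naive libraries, and 5.47, 7.19 and 5.45% in WT and 5.90, 4.60 and 5.80% in p52ki activated libraries. Every activated library lay above every naive library. In CPM after TMM scaling, Ighv6-3 rose from 23.2 ± 3.41 to 164 ± 53.5 in WT (SD, n = 3). This is a log2 change of 2.82 (SE 0.375, adjusted p = 0.00307; quasi-likelihood test of edgeR, p-values adjusted by Benjamini-Hochberg across the 15352 tested genes). In p52ki cells the log2 change was 2.32 (SE 0.367, adjusted p = 0.0233, the same edgeR test). The Ighv6-6 share was 0.967 to 1.51% in WT naive libraries, and 5.20, 5.45 and 2.85% in WT activated libraries. In p52ki it was 0.933 to 1.08% in naive libraries and 7.85, 2.54 and 4.96% in activated libraries. Its log2 change was 3.15 (SE 0.458, adjusted p = 0.00542) in WT and 3.37 (SE 0.463, adjusted p = 0.00785) in p52ki cells by the same edgeR test.

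Of the 121 members, 100 passed the filter on low counts and were tested. In WT cells 5 rose and 0 fell on activation, a share of 5% beside 0.319% of all genes called, 0.254% called higher and 0.0651% called lower. The other 3 were Ighv1-62-3 (log2 4.28, SE 0.586, adjusted p = 0.0034), Ighv14-3 (3.01, SE 0.471, adjusted p = 0.00906) and Ighv10-3 (2.35, SE 0.408, adjusted p = 0.0182), all by edgeR's quasi-likelihood test. In p52ki cells only Ighv6-3 and Ighv6-6 were called among the members, 2% of those tested beside 0.117% of all genes called and 0.0847% called higher. The groups did not overlap for 52 members in WT, all higher, where 18.8% of all genes did not overlap, 9.46% higher and 9.35% lower. In p52ki 59 were higher and 1 lower without overlap, beside 18.9% of all genes, 10.8% higher and 8.12% lower. The median log2 change of the members was 1.19 in WT and 0.95 in p52ki cells, with a median of 0.00153 and 0.00287 over all genes. No member passed the test of a difference of the activation change between genotypes (edgeR, 0 of 100 and 0% of all genes; 4 members at an unadjusted p under 0.05; 0 too by DESeq2).

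The number of calls depended on the method. In WT and p52ki it was 14 and 5 in DESeq2, 24 and 26 with the groups compared alone, and 60 and 33 under limma voom with quality weights. The WT count of 5 became 3, 1 and 2 without WT naive replicates 1, 3 and 4 and 3 without WT activated replicate 4. The p52ki count of 2 became 0 without any of the naive libraries or activated replicate 2, and 1 without activated replicate 3. Ighv6-3 in WT passed in each of these fits. Ighv6-6 in WT did not pass without WT naive replicate 3 or 4, Ighv14-3 without any WT naive library or activated replicate 4, and Ighv1-62-3 without WT naive replicate 3. Ighv10-3 was lost without any of the WT naive libraries, WT activated replicate 1 or WT activated replicate 4.

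Ighv11-2 and Ighv12-3, segments known from B-1 cells, the innate-like B cells, were low in naive cells. Ighv11-2 held 0.237, 1.01 and 0.330% of the counts in WT naive libraries and 1.75, 4.60 and 1.46% in WT activated libraries. In p52ki it held 0.177 to 0.603% in naive and 1.17 to 1.28% in activated libraries. The ranges of the stages did not overlap, but the log2 changes of 3.61 (SE 0.802, adjusted p = 0.0937) in WT and 2.74 (SE 0.777, adjusted p = 0.437) in p52ki cells did not pass edgeR's test. Under DESeq2 both passed, with adjusted p = 1.59e-05 and 0.00783. WT replicate 3 had the highest Ighv11-2 share at both stages. Its sum of 7 marginal zone and B-1 markers was also the highest of the WT libraries, 941 CPM in naive and 1814 in activated cells, where the others had 757 to 1032. In p52ki the sums were 969 to 1138 CPM in naive and 1060 to 1383 CPM in activated libraries, above all WT naive and above WT activated replicates 1 and 4, while Ighv11-2 shares in activated libraries were lower than in WT. The part of B-1 cells in these shares was not tested. Ighv12-3 stayed at or below 0.788% in every library. It held 0.194, 0.239 and 0.244% in WT naive and 0.710, 0.788 and 0.230% in WT activated libraries. In p52ki it held 0.19 to 0.29% in naive and 0.30 to 0.49% in activated libraries. In CPM it was higher in activated cells without overlap. Its log2 changes of 2.56 (SE 0.944) in WT and 1.68 (SE 0.917) in p52ki cells did not pass edgeR's test.

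**Figure D2:**
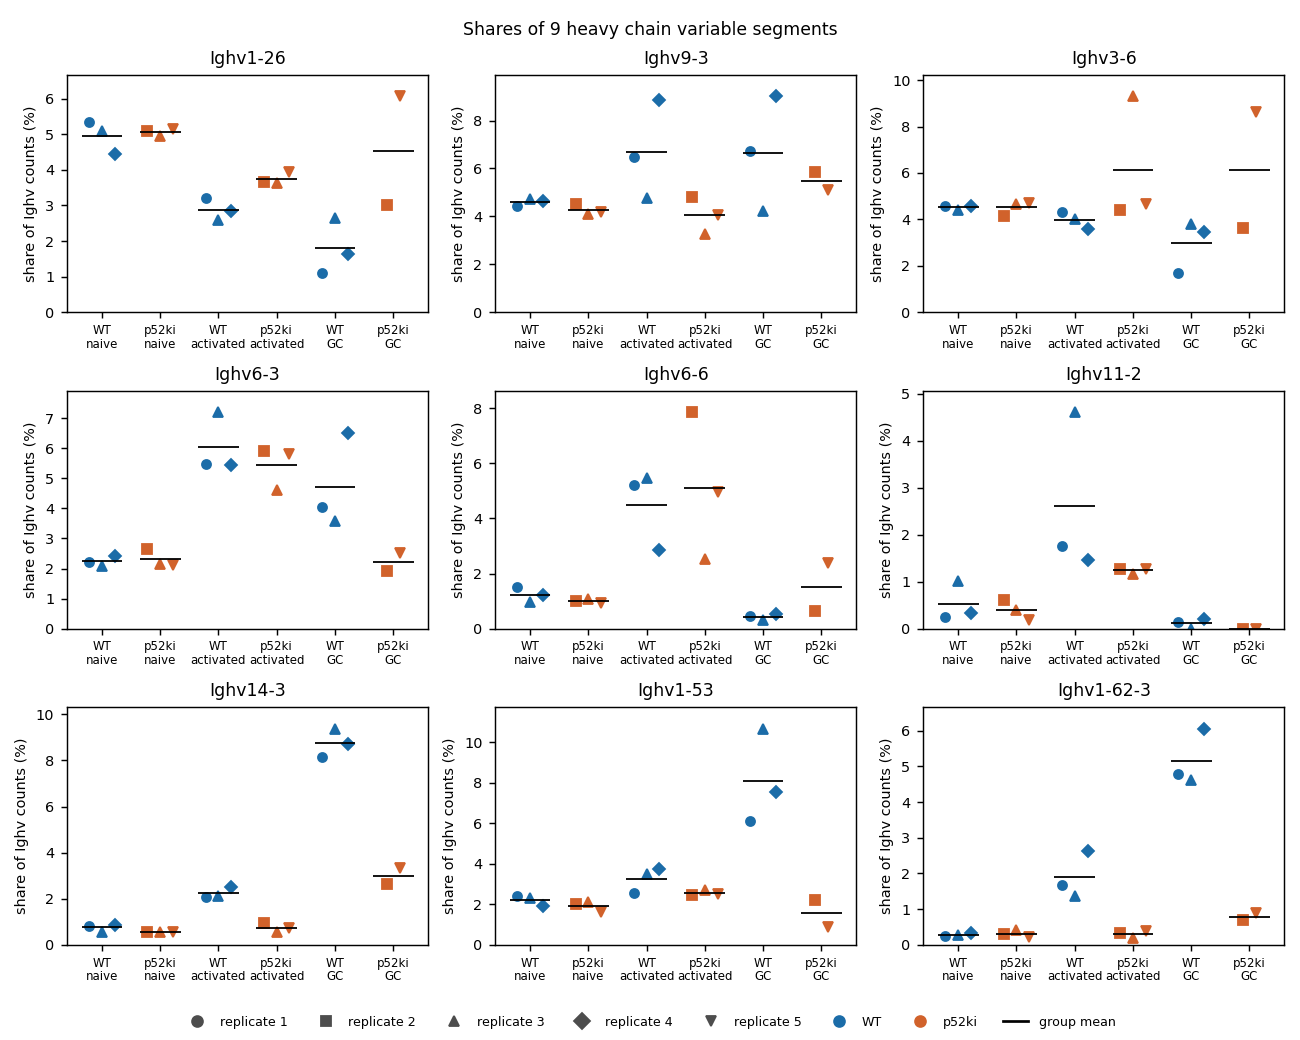
Share of Ighv counts (%) of 9 segments in each of 17 libraries, by group on the horizontal axis, with marker shape for the replicate number, colour for genotype and a line for the group mean. Ighv6-6 and Ighv11-2 are highest in activated libraries, whereas Ighv14-3, Ighv1-53 and Ighv1-62-3 are highest in the 3 WT GC libraries.

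The families shifted together with these segments. Ighv1, the family with most members, held 53.7 to 55.4% of the counts in the 6 naive libraries, 37.6 to 42.8% in the 6 activated libraries and 46.7 to 54.8% in the 5 GC libraries. Activated libraries lay below all others. Ighv6 held 3.04 to 3.78% in naive and 7.17 to 13.8% in activated libraries, and Ighv10 went from 2.56 to 3.10% in naive to 4.96 to 7.39% in activated libraries, in both cases without overlap. Ighv8 held 2.44, 2.47 and 2.69% in WT activated and 3.81, 3.72 and 3.86% in p52ki activated libraries, again without overlap. Ighv14 held 3.03 to 3.86% in naive and 3.86 to 4.93% in activated libraries. Pseudogenes together held at most 1.34% in any library. These shares are descriptions and were not tested.

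Position along the locus followed the family pattern. The 40 segments farthest from the D segments, most of them in family Ighv1, held 37.4 to 38.4% of the counts in naive, 27.7 to 30.2% in activated and 32.9 to 41.7% in GC libraries. The 41 segments nearest the D segments held 33.5 to 35.4% in naive and 34.5 to 43.6% in activated libraries. WT activated replicate 4 and p52ki activated replicate 3 had the highest values of the latter among activated libraries, 43.6 and 40.4%. Ighv1-72 lies among the segments farthest from the D segments but is left out by the rule. In WT replicates 1, 3 and 4 it had 199, 132 and 193 counts in naive and 1855, 1815 and 7364 in activated libraries. All members together had 9266, 7547 and 8192, and then 12953, 17518 and 33853. The lower share of the far segments in WT activated libraries is thus a share of the members, in which Ighv1-72 is not counted.

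**Figure D3:**
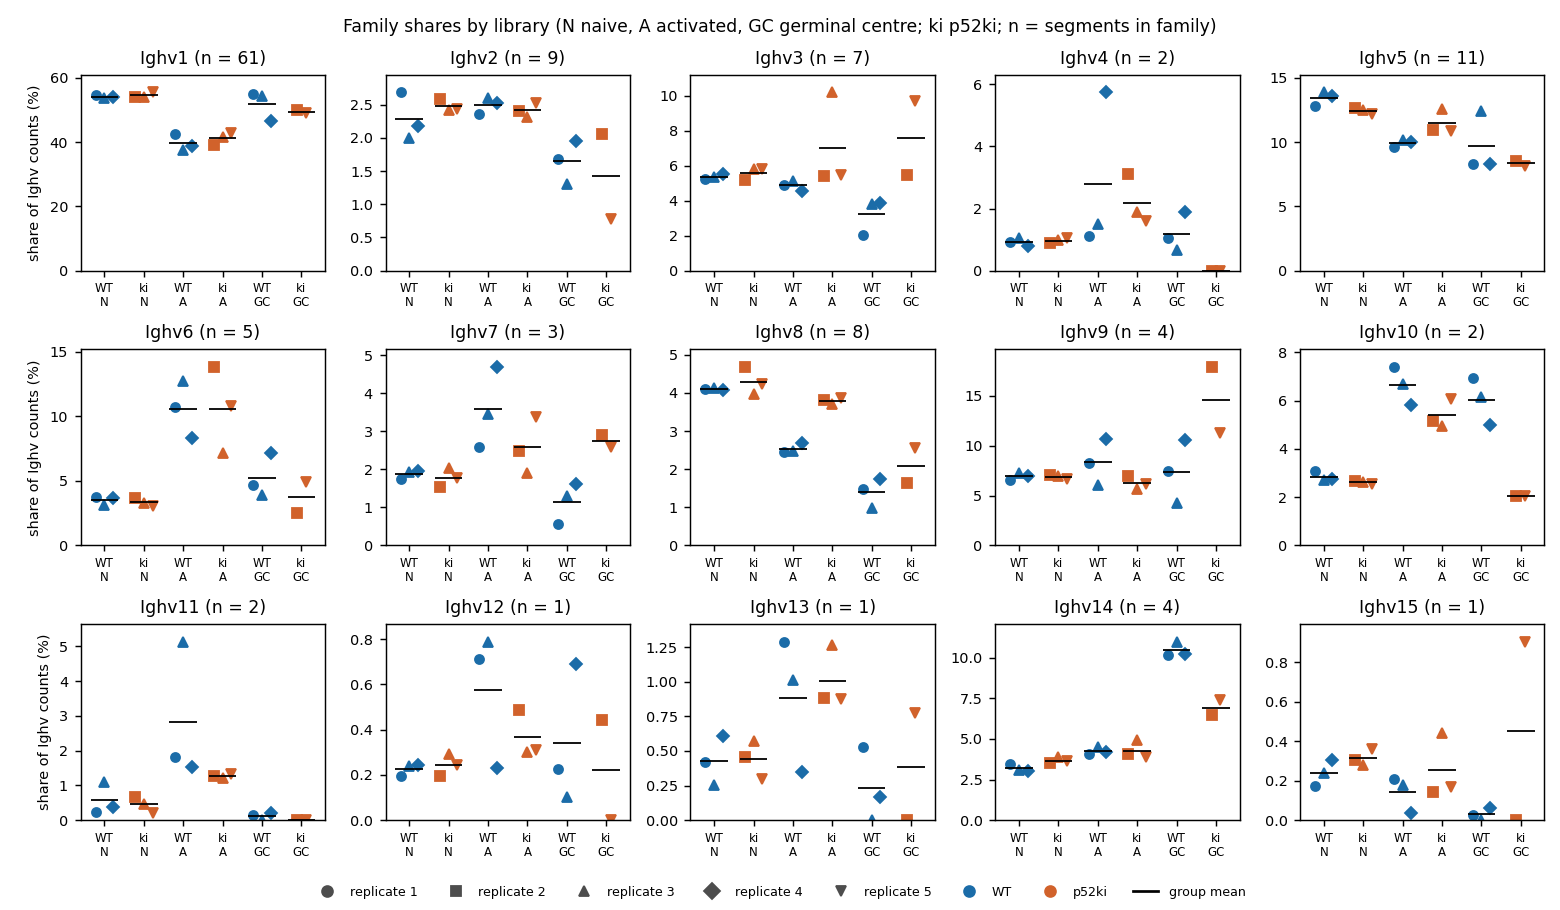
Share of Ighv counts (%) of the 15 families in each library, with groups on the horizontal axis (N naive, A activated, GC germinal centre; ki p52ki), marker shape for the replicate number, colour for genotype and a line for the group mean. Ighv1 is lowest in the activated libraries, Ighv6 highest there, and Ighv14 is above 10% in the 3 WT GC libraries alone.

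GC libraries held less Ighv RNA than activated libraries, and spread it less evenly. Summed Ighv counts were 469, 1180 and 844 CPM in WT GC replicates 1, 3 and 4 and 1107 and 801 CPM in p52ki GC replicates 2 and 5. These overlapped the naive range and lay below every activated library. The stages differed by -1555 CPM (exact two-sided permutation within genotype, p = 0.01, adjusted p = 0.03). Evenness was 0.786, 0.691 and 0.764 in WT GC and 0.715 and 0.795 in p52ki GC libraries, equal to 43.4, 27.5, 39.0, 30.9 and 45.2 equally used segments. All lay below the activated range, with a difference of -0.0893 (exact permutation, p = 0.005, the smallest it can give; adjusted p = 0.0188). Thinning every library to 3573 Ighv counts gave -0.087.

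The largest segment held 8.14 to 12.04% of the counts in GC libraries, 2.22 percentage points more than in activated libraries (exact permutation, p = 0.045, adjusted p = 0.113). It was Ighv14-3, Ighv1-53 and Ighv9-3 in WT replicates 1, 3 and 4, and Ighv9-4 and Ighv3-6 in p52ki replicates 2 and 5. Its p was 0.05 or higher without WT activated replicate 1 or 3, p52ki activated replicate 2 or 5, any WT GC replicate, or p52ki GC replicate 2. Ighv1-72, left out of these shares by the rule, had more counts than any member in WT GC replicates 1, 3 and 4. It had 1695, 2237 and 4081 counts there, beside 3573, 5816 and 8382 on all members together. In p52ki GC replicates 2 and 5 Ighv1-72 had 370 and 384 counts beside 4501 and 5305. Of the 3 GC libraries with few detected genes, WT replicate 3 and p52ki replicate 2 had the lowest evenness and p52ki replicate 5 the highest of the GC libraries. Without the 3 only the WT libraries could be compared, and the differences were -2034 CPM (exact permutation, p = 0.1) and -0.058 in evenness (exact permutation, p = 0.1, the smallest that 2 against 3 libraries can give).

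In WT cells, GC against activated, 45 of the 100 tested members fell and 0 rose by edgeR's quasi-likelihood test, beside 13.6% of all genes called and 7.75% called lower. The median log2 change was -2.27 for the members and -0.13 for all genes. The groups did not overlap for 66 members, all lower, beside 31.2% of all genes and 19.5% without overlap and lower. With Ighv counts as the library size, so that only shares are compared, 4 rose and 10 fell. The count was 7 with the groups compared alone and 82 under limma voom with quality weights. The count of 45 became 25 without WT activated replicate 4, the library with the highest Ighv output, and 29 without WT GC replicate 1.

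Ighv6-6 fell from 115 ± 9.70 to 3.51 ± 1.26 CPM in WT, a log2 change of -5.02 (SE 0.507, adjusted p = 2.95e-05, edgeR). Its share was 0.476, 0.310 and 0.513% in the WT GC libraries, below all naive libraries as well. Ighv11-2 changed by log2 -6.12 (SE 0.923, adjusted p = 0.000604, edgeR), to shares of 0.140, 0 and 0.203%, where a count of 0 in WT GC replicate 3 allows a share of up to 0.0516%. The falls of Ighv8-5, Ighv14-1, Ighv5-16, Ighv3-1, Ighv2-3, Ighv1-85, Ighv1-71 and Ighv1-62-2 ranged from -6.72 to -4.32 on the log2 scale. Of these, Ighv1-85 lost its call without WT activated replicate 4 or WT GC replicate 4, and Ighv1-71 and Ighv1-62-2 without WT GC replicate 1.

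Not every member was called lower. Of those not called, 3 that were called in another comparison and had a rising share are described here. They were chosen from these same data. Ighv14-3 held 0.842, 0.570 and 0.879% of the counts in WT naive, 2.08, 2.14 and 2.51% in WT activated and 8.14, 9.37 and 8.70% in WT GC libraries, with no overlap between the stages. Its level in CPM did not change between activated and GC cells beyond the spread, 64.6 ± 34.3 against 75.8 ± 37.0 (log2 0.23, SE 0.434, adjusted p = 0.787, edgeR). Ighv1-53 held 1.90 to 2.41% in WT naive, 2.54, 3.51 and 3.77% in WT activated and 6.10, 10.7 and 7.55% in WT GC libraries. Ighv1-62-3 held 0.248 to 0.342%, then 1.69, 1.37 and 2.63%, and then 4.79, 4.63 and 6.05% at the 3 stages. Their log2 changes in CPM from activated to GC were -0.34 (SE 0.528, adjusted p = 0.734) and -0.41 (SE 0.507, adjusted p = 0.671) by edgeR. The signs of these 3 changes turned in some fits without a single library. Together the 3 segments held 3.13 to 3.50% of the counts in WT naive, 6.32 to 8.91% in WT activated and 19.03, 24.7 and 22.3% in WT GC libraries.

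In p52ki cells, GC against activated, 26 members fell and 0 rose (edgeR), beside 25.6% of all genes called, 6.34% higher and 19.3% lower. The share of members is thus near that of all genes. Against activated libraries 58 members were lower and 2 higher without overlap, beside 53.3% of all genes, 15.2% higher and 38.2% lower, with medians of -1.67 for the members and -0.41 for all genes. The 2 higher were Ighv14-3 (log2 0.85, SE 0.484, adjusted p = 0.204) and Ighv1-62-3 (0.28, SE 0.582, adjusted p = 0.751), neither called by edgeR. With Ighv counts as the library size 1 rose and 9 fell. The count was 0 under limma voom with quality weights, 14 with the groups compared alone and 48 in DESeq2. The count of 26 became 16 without p52ki activated replicate 2 and 16 without replicate 3. Ighv6-3 fell (log2 -2.43, SE 0.434, adjusted p = 0.00167), and so did Ighv6-6 (log2 -2.92, SE 0.536, adjusted p = 0.00194), both by edgeR. Ighv4-1, Ighv11-2, Ighv8-5 and Ighv1-20 had no count in either p52ki GC library. With 3 counts over both libraries as the floor, they were at least 175-fold, 97.4-fold, 30.8-fold and 18.3-fold lower than in activated cells. These bounds cover counting error only, and 37 members had no count in either of these sparse libraries. Ighv1-20 lost its call without p52ki GC replicate 2 or 5.

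Between the genotypes no tested member was called in naive cells. Of 100 tested members 0 were called (edgeR; 0% of all genes), 1 had an unadjusted p under 0.05, and DESeq2 also called 0. In 13 members the groups did not overlap, 8 higher and 5 lower in p52ki, beside 10.7% of all genes, 5.21% higher and 5.48% lower. Summed Ighv CPM differed by -17.6 (p52ki minus WT; exact permutation, p = 0.7) and evenness by 0.00348 (exact permutation, p = 0.2). With 3 libraries against 3 the smallest p is 0.1, and the same holds for 2 against 3.

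In activated cells edgeR called 0 of the 100 members, beside 0.013% of all genes (0.00651% higher and 0.00651% lower), and 7 had an unadjusted p under 0.05. DESeq2 called 2, Ighv1-62-3 and Ighv14-3, both lower in p52ki, and with Ighv counts as the library size 0 were higher and 2 lower. Ighv14-3 held 2.08, 2.14 and 2.51% in WT and 0.963, 0.560 and 0.736% in p52ki activated libraries, and the groups did not overlap. Its log2 difference was -2.02 (SE 0.451, adjusted p = 0.963 by edgeR, 0.0162 by DESeq2). Ighv1-62-3 held 1.69, 1.37 and 2.63% in WT and 0.326, 0.202 and 0.395% in p52ki libraries, a log2 difference of -3.22 (SE 0.554, adjusted p = 0.125 by edgeR, 1.62e-06 by DESeq2). In 11 members the groups did not overlap, all lower in p52ki, beside 6.1% of all genes, 3.15% higher and 2.95% lower. The median log2 difference was -0.19 for the members and -0.00215 for all genes. Summed Ighv CPM differed by -486 (exact permutation, p = 0.7) and evenness by 0.0143 (exact permutation, p = 0.2), both with overlap.

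Shared repertoires between stages differed in range between the genotypes. The shared repertoire of WT naive and WT activated libraries was 68.8 to 74.5%, and that of p52ki naive and p52ki activated libraries 76.5 to 81.8%, with no overlap. Among activated libraries it was 79.5 to 83.4% within WT, 82.3 to 89.5% within p52ki and 73.5 to 84.3% between them. These pairs share libraries, and the difference was not tested.

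In GC cells 26 members differed between the genotypes by edgeR, 16 higher and 10 lower in p52ki, beside 16% of all genes called, 3.75% higher and 12.2% lower. The median log2 difference was 0.40 for the members and -0.32 for all genes. With Ighv counts as the library size 18 were higher and 19 lower. When the GC groups were fitted alone, and under limma voom with sample quality weights, 0 members were called. The groups did not overlap for 30 members, 17 higher and 13 lower, beside 24.8% of all genes, 9.45% higher and 15.4% lower. Both p52ki GC libraries are among those with few detected genes. Set against WT GC replicate 3 alone, the WT library with a like number of detected genes, 37 were called, 21 higher and 16 lower. That single library was taken to vary as much as the other groups do.

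The segments higher in p52ki GC cells were often high in 1 of the 2 libraries. Ighv9-4 held 12.04% in p52ki replicate 2 and 0.547% in replicate 5, where WT GC libraries had 0.504, 0 and 1.19%. Its log2 difference of 3.91 (SE 1.24, adjusted p = 0.0447, edgeR) became 0.0585 without p52ki replicate 2 and also lost its call without WT GC replicate 1. Ighv9-1 held 0 and 5.39% and Ighv1-85 held 0 and 3.07% in p52ki replicates 2 and 5. Their log2 differences were 4.47 (adjusted p = 0.0326) and 4.78 (adjusted p = 0.0189) by edgeR. Both rest on p52ki replicate 5, since the other p52ki GC library has no count of either segment. Ighv1-85 was also lost without WT GC replicate 4, and Ighv9-1 without WT GC replicate 1. Ighv1-80 held 11.5 and 3.98% in p52ki and 3.75, 0 and 0.597% in WT GC libraries, with a log2 difference of 3.39 (SE 0.954, adjusted p = 0.0272, edgeR). It lost its call without p52ki GC replicate 2 or WT GC replicate 4.

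Ighv5-16 and Ighv1-50 were higher in both p52ki GC libraries and kept their call without any single library. Ighv5-16 held 5.29 and 1.15% in p52ki and 0.448, 0 and 0.191% in WT GC libraries (log2 4.65, SE 0.870, adjusted p = 0.00337, edgeR). Ighv1-50 held 1.04 and 2.45% in p52ki and 0.840, 0.0344 and 0.227% in WT GC libraries (log2 2.92, SE 0.623, adjusted p = 0.0077, edgeR). The groups overlapped for neither segment. Both segments are common in naive cells, where Ighv5-16 held 1.43 to 1.94% and Ighv1-50 2.03 to 2.58%. The naive B cell markers Fcer2a, Ccr7 and Ighd summed to 980 and 1086 CPM in p52ki and 382 to 549 CPM in WT GC libraries. The GC B cell markers Bcl6, S1pr2, Fas, Mki67 and Mybl1 summed to 519 and 605 CPM in p52ki and 877 to 1280 CPM in WT GC libraries, and to at most 81.8 CPM in other libraries. The sum of marginal zone and B-1 markers was 638 and 504 CPM in p52ki and 182 to 233 CPM in WT GC libraries, and that of erythroid markers was 330 and 342 CPM against 49.7 to 216 CPM. The part of such cells in the p52ki GC repertoire was not tested.

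Ighv14-3, Ighv1-53 and Ighv1-62-3, chosen from these same data among segments with a rising share in WT, were lower in p52ki GC cells. Ighv1-53 and Ighv1-62-3 were named because they were called lower in this comparison. Ighv14-3 held 2.62 and 3.34% in the p52ki GC libraries against 8.14 to 9.37% in WT (log2 -1.40, SE 0.511, adjusted p = 0.0737, edgeR). It did not pass the test, though it did under DESeq2 with adjusted p = 0.0393. Ighv1-53 held 2.22 and 0.886% against 6.10 to 10.7% (log2 -2.23, SE 0.651, adjusted p = 0.0322, edgeR), and Ighv1-62-3 held 0.689 and 0.886% against 4.63 to 6.05% (log2 -2.53, SE 0.636, adjusted p = 0.0168, edgeR). None of the 3 overlapped between the genotypes. Between the genotypes, their changes from activated to GC cells were not called different by edgeR. The difference of changes was log2 0.62 (SE 0.65, adjusted p = 0.6125) for Ighv14-3. It was -1.48 (SE 0.811, adjusted p = 0.287) for Ighv1-53 and 0.69 (SE 0.771, adjusted p = 0.641) for Ighv1-62-3. The summed share of the 3 was 5.53 and 5.11% in p52ki GC libraries and 19.03 to 24.7% in WT GC libraries. In p52ki it was 2.45 to 3.15% in naive and 3.475 to 3.735% in activated libraries. Given how the 3 were chosen, this sum is a description and tests no difference. Ighv1-53 lost its call without WT GC replicate 3 or 4 or p52ki GC replicate 5, and Ighv1-62-3 without p52ki GC replicate 2.

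Ighv4-1 held 0.980, 0.671 and 1.83% in WT GC libraries and had no count in either p52ki GC library, which allows shares of up to 0.0667 and 0.0566%. It was at least 36-fold lower, with 3 counts over both p52ki libraries as the floor (adjusted p = 0.00638, edgeR). The floor covers counting error only, and 37 members had no count in either of these sparse libraries. Ighv10-1 held 2.60, 5.35 and 2.12% in WT and 0 and 0.811% in p52ki GC libraries (log2 -3.09, SE 0.974, adjusted p = 0.0434, edgeR). It lost its call without WT GC replicate 3 or 4 or p52ki GC replicate 2. Summed Ighv CPM differed by 123 (exact permutation, p = 0.8) and evenness by 0.00795 (exact permutation, p = 0.9).

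The change from activated to GC cells was tested for a difference between the genotypes. Of the 100 members 4 passed edgeR's test, 3 with a higher and 1 with a lower change in p52ki, beside 5.95% of all genes, 0.977% higher and 4.97% lower. The share of members called is below that of all genes. The count was 0 under limma voom with quality weights and with the groups compared alone, and 21 in DESeq2. With Ighv counts as the library size 1 was higher and 6 lower. The count was 0 without p52ki activated replicate 2 or 5, 1 without WT activated replicate 4, 2 without WT activated replicate 1 or p52ki activated replicate 3, and among GC libraries 8 and 22 when WT replicate 4 or 3 was left out and 10 and 21 when p52ki replicate 2 or 5 was. The 4 were Ighv5-16, Ighv1-50, Ighv2-5 and Ighv4-1. Ighv5-16 went from 41.9 ± 21.7 CPM in WT activated to 1.26 ± 1.11 in WT GC libraries (SD, n = 3), and from 41.7 ± 18.1 (n = 3) to 33.8 ± 33.7 (n = 2) in p52ki.

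GC repertoires differed from library to library. The shared repertoire was 63.8, 74.8 and 61.9% for the 3 pairs of WT GC libraries and 49.8% for the p52ki pair. Between WT and p52ki GC libraries it was 38.8 to 51.5%. The p52ki GC libraries shared 54.9 to 68.4% with WT naive libraries, and the WT GC libraries 48.8 to 57.3%. The lowest value, 38.8%, was that of WT replicate 3 and p52ki replicate 2, both with few detected genes. Activated and GC libraries of the same genotype and replicate number shared 60.9% on average, against 59.2% over all 36 ways to pair them within genotype (exact one-sided permutation test, p = 0.0833). With Ighv1-72 added to the members, p was 0.0278, the smallest it can give. For naive and activated libraries the means were 75.4 and 75.4% (exact one-sided permutation test, p = 0.417).

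**Figure D4:**
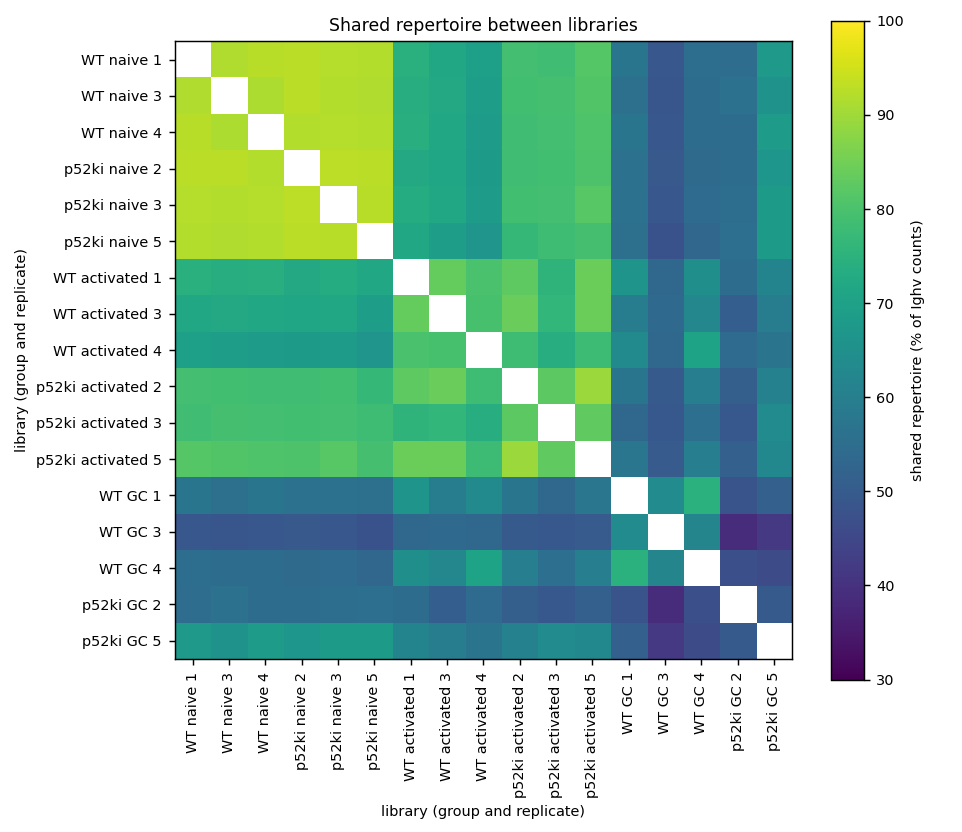
Shared repertoire (% of Ighv counts, colour scale from 30 to 100) for every pair of the 17 libraries, ordered by group on both axes; the diagonal is blank. Naive libraries form a block above 91% whatever the genotype, and pairs of WT and p52ki GC libraries are between 38.8 and 51.5%.

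The counts of Ighv1-62-3 ran beside those of its near copy Ighv1-72, known from the antibody response to the hapten NP. Ighv1-72 ranged from 132 to 7364 counts over the libraries, a 55.8-fold range, and Ighv1-62-3 from 21 to 889. Per 100 counts of Ighv1-72 there were 8.38 to 23.7 of Ighv1-62-3, with a median of 12.4. The same ratio ran from 12.2 to 217 for Ighv1-53 and from 11.6 to 46.1 for Ighv14-3. The values of Ighv1-62-3 are uncertain for that reason, since reads of Ighv1-72 may be counted for it, which was not tested. Ighv14-3, with 76 differing bases, shares no such near identity with Ighv1-72. Ighv1-72 itself was lower in p52ki cells, by log2 -3.52 in activated (SE 0.468, adjusted p = 0.0266) and -2.29 in GC cells (SE 0.520, adjusted p = 0.0106, both edgeR).

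**Figure D5:**
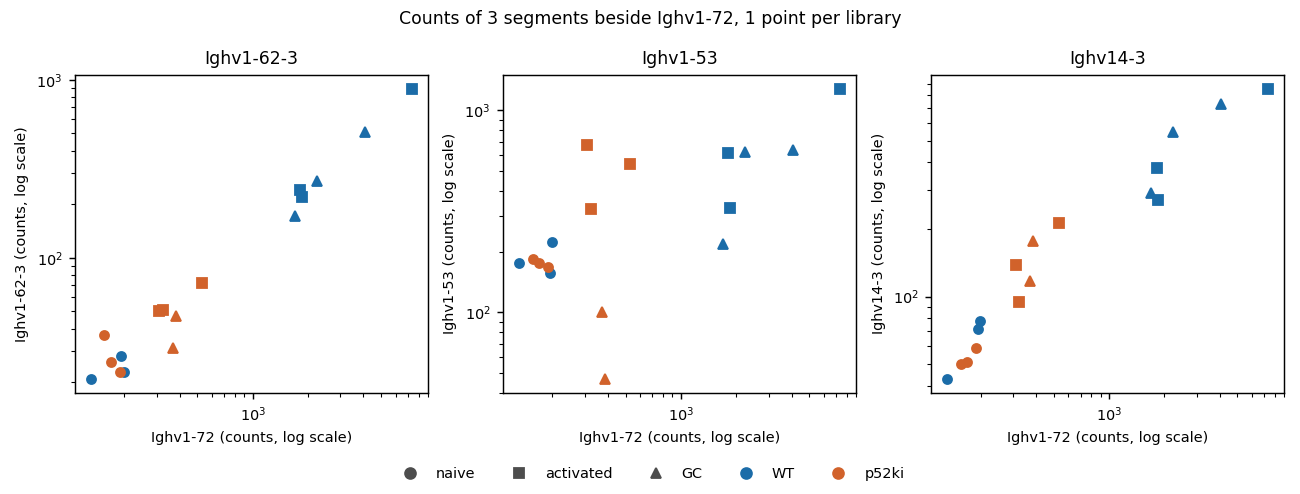
Counts of Ighv1-62-3, Ighv1-53 and Ighv14-3 (vertical axes) against counts of Ighv1-72 (horizontal axes), both on log scales, 1 point per library, with marker shape for stage and colour for genotype. Ighv1-62-3 lies along a line with 8.38 to 23.7 counts per 100 of Ighv1-72. Ighv14-3 runs from 11.6 to 46.1 per 100, and Ighv1-53 spreads more widely, from 12.2 to 217 per 100.

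Listed genes that act on the heavy chain locus or beside its product were called only in comparisons that include GC cells. Of 11 genes of V(D)J recombination, 10 were tested and 0 were called in any comparison by edgeR. Rag2, a subunit of the recombinase, had 23, 0 and 2 counts in WT activated and 13, 11 and 3 in p52ki activated libraries, and none in any naive or GC library. Rag1, its partner, had 12, 0 and 0 counts in WT activated, 12, 4 and 13 in p52ki activated libraries, and 1 in all the others together. The log2 change of Rag2 from naive to activated did not pass (unadjusted p = 0.0233 in WT and 0.0299 in p52ki, adjusted p = 0.651 and 1, edgeR).

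Of 10 regulators of heavy chain transcription, 0 were called between naive and activated cells. In WT, 3 rose and 1 fell from activated to GC cells, beside 13.6% of all genes called: E2f1, a cell cycle factor (log2 2.38, SE 0.447, adjusted p = 0.00223), Pou2af1, the B cell coactivator of octamer factors (1.17, SE 0.231, adjusted p = 0.00336) and Yy1 (1.18, SE 0.303, adjusted p = 0.0176) rose, and Ebf1 (-1.17, SE 0.239, adjusted p = 0.00431) fell, all by edgeR. In p52ki 2 rose and 1 fell, beside 25.6% of all genes called. The 1 that fell was Pou2f1, an octamer factor, with log2 -4.0 (adjusted p = 0.00399, edgeR). Pou2f1 was also lower in p52ki than in WT GC cells (log2 -3.87, adjusted p = 0.00724) and Ebf1 higher (0.89, adjusted p = 0.0327), both by edgeR. Among partners of the B cell receptor, Cd79a, its signalling chain, was higher in p52ki GC cells (log2 0.84, adjusted p = 0.0397, edgeR). From activated to GC cells Cd79a fell in WT (log2 -0.95, adjusted p = 0.0146) and Lyn, a kinase of the receptor, in p52ki (log2 -1.20, adjusted p = 0.00876), both by edgeR. Of 24 D and J segments only 4 could be tested, and Ighj3, with 17, 2 and 15 counts in WT GC libraries and 0 in both p52ki GC libraries, was the 1 called between the genotypes.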

How the data were processed

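Read counts per gene were deposited as 1 table of 17 libraries made with SMART-Seq v2, a full-length method without molecular identifiers, so every interval and floor covers counting error only. Per the submitters' processing notes the authors aligned or counted against GRCm38 with tools that include featureCounts (Subread 1.6.2), HISAT2 2.1.0 and SAMtools 1.8. The sources used here name no annotation release, strand setting or treatment of reads with several matches. GENCODE release 21 matched 55536 of 55536 gene identifiers and gave types, positions and coding sequences.

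Shares were computed over the 121 members. A floor is 3 counts. Counts were fitted in edgeR 4.0.16 (R 4.3.3) with TMM scaling, filterByExpr and robust quasi-likelihood dispersions over all 17 libraries, with 1 coefficient per group. In all, 15352 genes were tested, with 100 members among them and 21 left out as too low. A call is a Benjamini-Hochberg adjusted p under 0.05. Repertoire measures were compared by exact two-sided permutation tests, within genotype for stages (Python 3.11.15, numpy 2.4.6). Alternatives used DESeq2 1.42.0, limma 3.58.1, other scalings and filters, a replicate block and each library left out; thinning drew 3573 counts 100 times. Scripts were tested on simulated data.

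Segments named are the 10 of highest mean share in WT naive cells, the largest segment of every library, up to 10 called higher and 10 called lower per comparison with the largest change and a mean of 5 CPM or more in a group, and Ighv11-2 and Ighv12-3, together with the families and the gene lists. Some were then followed across comparisons. A few genes of the marker and receptor lists are not reported here, and marker sums leave them out. Members and lists were chosen with earlier results of these data known. Replicate numbers were not used as pairs.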

Additional observations from a re-analysis of the deposited data

Results flagged for a closer look

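For 4 segments the change from activated to GC cells differed between the genotypes, by edgeR's quasi-likelihood test of that difference with Benjamini-Hochberg adjustment. Ighv5-16 differed by log2 4.66 (SE 1.10, adjusted p = 0.0253): it fell from 41.9 ± 21.7 to 1.26 ± 1.11 CPM in WT and was at 41.7 ± 18.1 and 33.8 ± 33.7 CPM in p52ki. Ighv2-5 differed by log2 4.27 (SE 1.08, adjusted p = 0.0332), with 6.1 ± 1.27 and 0.303 ± 0.329 CPM in WT and 3.42 ± 0.565 and 3.84 ± 3.81 CPM in p52ki. Ighv1-50 differed by log2 3.06 (SE 0.818, adjusted p = 0.0416), with 26.9 ± 9.47 and 2.11 ± 1.72 CPM in WT and 24.4 ± 8.20 and 16.4 ± 7.03 CPM in p52ki. Ighv4-1 had a fitted difference of log2 -8.22 (SE 2.17, adjusted p = 0.042), which is no bound, since it had no count in either p52ki GC library. In WT its means were 96.5 ± 122 CPM in activated and 9.69 ± 6.26 CPM in GC cells. Means are over 3 libraries, and over 2 for p52ki GC cells. None of the 4 kept its call under limma voom with quality weights, with the groups compared alone or without p52ki activated replicate 2 or 5.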

How the results depend on the processing

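With Ighv counts as the library size, called segments numbered 2 for genotype in activated cells, 14 and 10 for GC against activated in WT and p52ki, and 7 for the difference of the GC changes. With no filter they were 1 for genotype in activated cells, 10 for activation in WT and 10 for the difference of GC changes. DESeq2 gave 2 for genotype in activated cells, 14 and 5 for activation in WT and p52ki, 48 for GC against activated in p52ki and 21 for the difference of GC changes. limma voom with quality weights gave 4 and 0 for genotype in activated and GC cells, 60 and 33 for activation, 82 and 0 for GC against activated, and 0 for the difference of GC changes. With the groups compared alone the counts were 0 for genotype in GC cells, 24 and 26 for activation, 7 and 14 for GC against activated, and 0 for the difference. The stages of a genotype share replicate numbers, but the labels do not say that a number marks an animal. Over all genes, deviations of same-numbered naive and activated libraries correlated at 0.0786 to 0.281. For activated and GC libraries the correlations were -0.229 to 0.068. The main tests use no block and so ignore any such pairing. A fixed replicate block in edgeR gave 2 and 0 for activation, 28 and 16 for GC against activated and 0 for the difference, and a random replicate block in limma 15 for genotype in GC cells. Without 1 library each, the counts ran from 1 to 6 and 0 to 2 for activation in WT and p52ki, 25 to 54 and 16 to 35 for GC against activated, 21 to 36 for genotype in GC cells and 0 to 22 for the difference.

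GC against activated, the replicate block of same-numbered pairs gave -1497 CPM, -0.0905 in evenness and 2.46 points of largest share (exact sign-flip, p = 0.0625 each). Without the 3 GC libraries of fewest genes these were -2034, -0.058 and 1.07. With Ighv1-72 added, the genotype differences (p52ki minus WT) were -165 CPM in GC cells and -5.76 and -21.3 points of largest share in activated and GC cells, and the gain of same-numbered pairs was 1.34 points. Against WT GC replicate 3 alone they were -227 CPM and -0.323 points. The naive difference in largest share was -0.00588 points after thinning and -0.00498 without each library's largest segment, where the activated difference was -0.421. Without 1 library each, genotype differences ran from -62.4 to 27.0, -807 to 138 and -58.4 to 298 CPM at the 3 stages, from -0.0316 to 0.0475 in evenness of GC cells, and from -0.156 to 0.178, -0.689 to 1.07 and -0.641 to 2.77 points of largest share, and the GC change in largest share from 1.37 to 3.08 points.

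Of the values for named segments under alternatives, 678 kept direction and side of the threshold, 199 lost the call, 37 gained it and 11 turned sign. Ighv1-85 and Ighv9-1 in GC cells had fitted values of -4.99 and -6.12 without p52ki GC replicate 5, which measure no reversal, since the p52ki library left has 0 counts of both, and highest values of 5.74 and 5.52 among such fits. With Ighv counts as the library size, Ighv1-62-3 on activation in p52ki became -0.0486, and Ighv1-53 and Ighv1-62-3, GC against activated in WT, 1.31 and 1.44. In that comparison Ighv14-3 became -0.49 in limma, -0.01 without WT activated replicate 3 and -0.16 without WT GC replicate 3, in a range up to 0.75. Ighv1-53 became 0.23 without WT activated replicate 4 and 0.05 without WT GC replicate 1, in a range from -0.97, and Ighv1-62-3 became 0.42 without WT activated replicate 4, in a range from -0.76. The causes were not tested. Members with few counts, 21 of them untested, limit what the sparse GC libraries can show.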
